A study of Mus musculus with 12 samples.

Results

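The mRNA of 10 collagen chains was followed in mouse liver: the fibrillar chains Col1a1, Col1a2, Col3a1 and Col5a2, the basement membrane chains Col4a1, Col4a2 and Col18a1, the beaded-filament chains Col6a1 and Col6a2, and Col14a1, which sits on the surface of fibrils. They were found by matching each array probe's transcript accession to a gene symbol, which gave 10 genes and 17 probes among 25270 genes or unnamed probes and 41174 distinct probes. RNA of whole liver from C57BL/6 mice was read on 12 Agilent arrays, each carrying 1 liver sample in Cy5 and the same pooled liver reference in Cy3. All mice carried MycF/F, an allele in which Myc is flanked by recombination sites. The group MycF/F on control diet had 1 array, whose RNA is labelled as pooled, and MycF/F on 0.1% Wy-14643 had 3. The group MycF/F,ERT2-Cre on control diet had 4 arrays, and the same genotype on 0.1% Wy-14643 had 4. Wy-14643 is an agonist of PPARα, a nuclear receptor of hepatocytes, and the diets were given for 2 days. ERT2-Cre is a recombinase whose activity depends on tamoxifen, and it deletes the flanked Myc; the labels call these livers knockout. The promoter of the transgene, any tamoxifen treatment, and the animals' age and sex were not stated by the sources at hand. Nothing in the labels says that the arrays of a group came from separate animals, so p-values measure the spread between these samples, which may be technical.

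Collagens are trimeric proteins of the extracellular matrix. Fibrillar types I, III and V form the tensile fibres of the portal tracts and the space of Disse, type IV forms the sheet-like network of basement membranes, and type XVIII is a proteoglycan of basement membrane zones whose C-terminal fragment is endostatin. Type VI filaments link cells to fibrils, and type XIV is a fibril-associated collagen. In liver, stellate cells and portal fibroblasts are the main source of fibrillar chains, endothelial cells and stellate cells make type IV, and hepatocytes are a known source of type XVIII. A procollagen chain is hydroxylated, folded by chaperones in the endoplasmic reticulum, trimmed by propeptidases outside the cell and cross-linked by lysyl oxidases. In whole-liver RNA, fewer cells of a type and less RNA per cell cannot be told apart.

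Each value is the log2 ratio of the sample to the reference, so 0 is the level of the pooled reference and a difference of 1 is a doubling. The brightest probe represents a gene unless another is named. Median Cy5 signal over local background ran from 2.64 to 4.82 on the 12 arrays, 64.6% to 77.1% of spots were well above background and 0 Cy5 spots were saturated. The arrays lay on 3 slides of 4, and slide 1 held 5.47% to 8.35% outlier spots against 0.904% to 1.84% on the others. Myc, the targeted gene, was measured by 3 probes. The dimmer 2 gave means of 0.64 and 0.76 in MycF/F livers and of -1.18 and -1.09 in MycF/F,ERT2-Cre livers, both on the drug, or 3.54-fold and 3.61-fold lower (limma, adjusted p = 0.0056 and 0.00386). The brightest gave 0.56 and -0.01, from the 2 and 3 arrays with a value. It was 1.49-fold lower and was not called (limma, adjusted p = 0.27). The place of the 3 probes relative to the deleted part of the gene was not determined. All 11 hepatocyte markers on the array were above background on all 12 arrays.

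Of the 10 genes, 7 have at least 1 upstream window in the RefSeq promoter table (build GRCm38.p6), 9 windows in all, and 250 bases before the annotated start were read. The windows of 4 chains whose mRNA was lower on Wy-14643 are shown, those of the called chains that the table holds. Capitals mark exact matches, on either strand, of the CCAAT box (CCAAT), the GC box (GGGCGG), the TATA box (TATAAA) and the nuclear receptor half-site (AGGTCA); a match to the CCGCCC letters is a GC box on the opposite strand.
Col1a2, chr6:4505368-4505617, plus strand: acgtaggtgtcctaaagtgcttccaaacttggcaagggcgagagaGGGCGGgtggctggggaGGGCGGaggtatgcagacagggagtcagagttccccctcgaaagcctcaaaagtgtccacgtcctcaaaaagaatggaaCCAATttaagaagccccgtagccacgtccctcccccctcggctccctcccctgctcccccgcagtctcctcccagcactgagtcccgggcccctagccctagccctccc
Col3a1, chr1:45311288-45311537, plus strand: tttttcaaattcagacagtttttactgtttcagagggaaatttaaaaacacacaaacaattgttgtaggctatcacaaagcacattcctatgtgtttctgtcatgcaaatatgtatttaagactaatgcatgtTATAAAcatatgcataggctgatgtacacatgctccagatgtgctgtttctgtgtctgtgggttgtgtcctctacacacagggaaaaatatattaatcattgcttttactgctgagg
Col6a1, chr10:76726045-76726294, minus strand: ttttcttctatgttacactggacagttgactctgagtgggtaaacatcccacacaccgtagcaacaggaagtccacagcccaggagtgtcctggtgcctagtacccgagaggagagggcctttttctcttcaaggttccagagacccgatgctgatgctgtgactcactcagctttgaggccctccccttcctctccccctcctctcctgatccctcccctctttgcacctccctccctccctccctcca
Col6a2, chr10:76623631-76623880, minus strand: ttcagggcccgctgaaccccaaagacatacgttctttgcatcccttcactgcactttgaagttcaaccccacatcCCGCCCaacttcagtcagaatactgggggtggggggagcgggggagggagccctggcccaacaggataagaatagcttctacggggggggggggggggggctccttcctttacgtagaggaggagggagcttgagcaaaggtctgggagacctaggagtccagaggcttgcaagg
The Col1a2 window holds a CCAAT box 109 bases before the start and 2 GC boxes at 205 and 188. The Col3a1 window is poor in G and C (35.2%, against 62% in Col1a2, 56% in Col6a1 and 59.2% in the Col6a2 window shown) and holds a single match, a TATA box at 117 bases. The Col6a1 window holds none of these letters, and the Col6a2 window shown holds a GC box at 175 bases. A second Col6a2 window, for a start downstream of this one, holds 3 GC boxes at 67, 15 and 11 bases. Over all 32851 windows of the table, 33.8% hold CCAAT, 32.7% GGGCGG, 12.4% TATAAA and 14% AGGTCA. The half-site AGGTCA, of the kind that PPARα and its partner RXR bind as a pair, was in 0 of the 9 collagen windows. The direct repeat of that half-site with any 1 base between (also 0 of 9) holds the half-site within it, and 0.0335% of all windows have it. That says only that these letters are not in these windows. Type IV and type VI chains come in neighbouring pairs: Col4a1 and Col4a2 on chromosome 8, transcribed from starts that overlap by 22 bases on opposite strands, and Col6a1 and Col6a2 on chromosome 10, both on the minus strand. Col3a1 and Col5a2 are neighbours on chromosome 1.

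In MycF/F,ERT2-Cre livers the drug went with lower mRNA of 6 of the 10 chains and with higher mRNA of 0 (limma, adjusted p under 0.05). Over all 25159 genes tested in that comparison 7.25% were called lower and 9.09% higher, with a median log2 fold change of 0.03. Unnamed probes count as genes in this and later totals over all genes. Among the 18501 well above background on all 12 arrays, 1767 were called lower and 2230 higher. The 10 chains were chosen with earlier results of these data known, so these shares give scale and are not a test. The 6 were 3 of the 4 fibrillar chains (Col1a1, Col1a2, Col3a1), both type VI chains and Col14a1, with decreases of 1.47-fold to 2.15-fold. Of the basement membrane chains Col4a1, Col4a2 and Col18a1, 0 of 3 passed. All 10 estimates lay below 0, from -1.11 to -0.09 with a median of -0.56, and 43.4% of all genes lay below 0. In 5 of the 9 chains with a value on every array of both groups, every array on the drug was lower than every control array; 7.52% of 21250 such genes were separated that way. The count depends on the loess step within arrays: with median centring in its place 0 of the 10 were called (285 of all genes lower and 601 higher, from 1825 and 2287), and on the Cy5 channel alone 2 were, Col6a2 and Col14a1 (667 and 621). In both settings the estimates of these 6 chains stayed at or below -0.53.

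**Figure D1:**
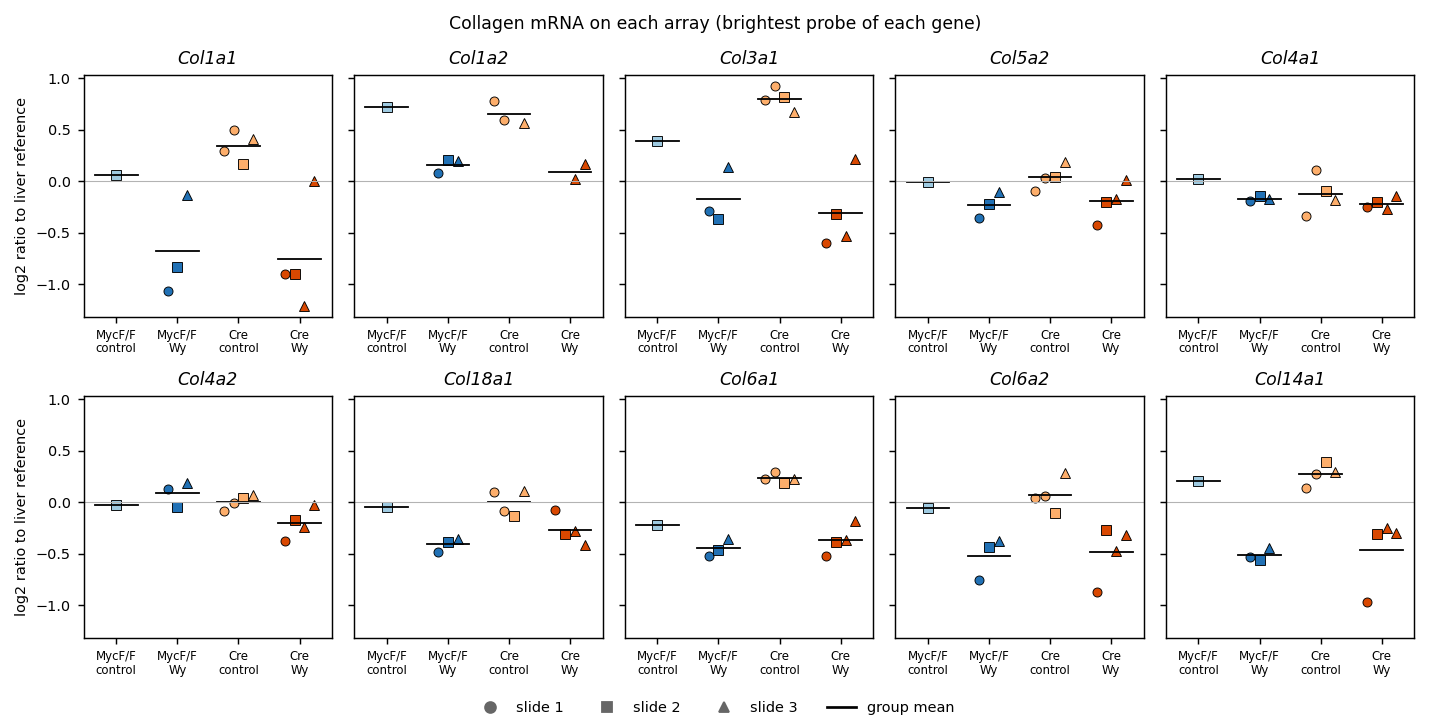
Log2 ratio to the liver reference (vertical axis) of each collagen on each array, in MycF/F and MycF/F,ERT2-Cre (Cre) livers on control diet or Wy-14643 (Wy); marker shape gives the slide and the bar is the group mean. Col1a1 on Wy-14643 runs from -1.21 to 0.00 in MycF/F,ERT2-Cre livers and from 0.17 to 0.50 on control diet, while Col4a1 overlaps between the 2 diets.

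Col3a1, the chain of type III collagen, had log2 ratios of 0.79, 0.93, 0.82 and 0.67 on the 4 MycF/F,ERT2-Cre control arrays and of -0.60, -0.32, -0.53 and 0.22 on the 4 drug arrays. Replicate 4 on the drug stood above the other 3, and the groups did not overlap. The difference was -1.11 ± 0.17 (SE; 2.15-fold lower, adjusted p = 0.000644, limma). A second, dimmer probe gave -0.55 ± 0.17 (adjusted p = 0.0444), and its drug arrays (-0.95 to -0.20) overlapped its controls (-0.21 to 0.36).

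Col1a1, the chain that makes up most of type I collagen, had control values of 0.29, 0.50, 0.17 and 0.41 and drug values of -0.90, -0.90, -1.21 and 0.00. Replicate 4 was again the highest drug array, and again the groups did not overlap. Col1a1 differed by -1.10 ± 0.24 (SE; 2.14-fold lower, adjusted p = 0.00821, limma). Its 2 other probes gave -0.97 ± 0.25 and -0.71 ± 0.22 (adjusted p = 0.0207 and 0.0436). Without replicate 4 of the drug group the estimates were -1.35 for Col1a1 and -1.28 for Col3a1. Without the 4 arrays of slide 1 Col1a1 was at -0.99 with an adjusted p of 0.0541 (limma) and Col3a1 at -0.95 with 0.0107.

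Col1a2, the second chain of type I collagen, had a usable spot on 9 of 12 arrays, since the scanner software marked the others as outlier spots. Its control values were 0.78, 0.60 and 0.57, and only 2 drug arrays gave a value, 0.02 and 0.17. The fit dropped control replicate 3 and drug replicates 1 and 2 and gave -0.56 ± 0.11 (SE; 1.47-fold lower, adjusted p = 0.0076, limma). With the outlier spots kept, the 3 arrays read 0.29, 0.43 and 0.73, the groups overlapped, and the difference was -0.23 with an adjusted p of 0.361. The Col1a2 call therefore held only with those spots left out; it was also lost without drug replicate 3 (-0.48, adjusted p = 0.0617), on the deposited log ratio (-0.58, 0.0689) and with the replicate number as a block (-0.54, 0.0564).

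Col5a2, a chain of the type V collagen that starts type I fibrils, was dim: it was well above background on 9 of 12 arrays and on 2 of the 4 drug arrays of this genotype. Controls read -0.09, 0.03, 0.04 and 0.19 and drug arrays -0.42, -0.20, -0.17 and 0.01, so the groups overlapped. The difference, -0.24 ± 0.10 (SE), had an adjusted p of 0.149 (limma). With slide as a block it was -0.30 with an adjusted p of 0.0151, and with replicate number as a block -0.24 with 0.0443.

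Both type VI chains were lower on the drug. Col6a1 had control values of 0.23, 0.30, 0.19 and 0.23 and drug values of -0.52, -0.38, -0.36 and -0.18. Its difference had the smallest SE of the chains called and was -0.59 ± 0.08 (SE; 1.51-fold lower, adjusted p = 0.000325, limma). Col6a2 read 0.04, 0.06, -0.10 and 0.29 on control diet and -0.87, -0.27, -0.47 and -0.32 on the drug. That is a difference of -0.56 ± 0.14 (SE, 1.47-fold lower, adjusted p = 0.0149, limma), again without overlap, and replicate 1 was the lowest drug array for both chains. The size of both differences depended on the processing. With a background offset of 16 in place of 50, Col6a1 was at -0.74 and Col6a2 at -0.76. On the deposited log ratio they were at -1.03 and -0.91.

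Col14a1, the fibril-associated chain, read 0.14, 0.28, 0.39 and 0.30 on control diet and -0.97, -0.31, -0.25 and -0.30 on the drug. Drug replicate 1 lay far below the other 3, and all 4 lay below the controls. The difference was -0.73 ± 0.14 (SE; 1.66-fold lower, adjusted p = 0.00317, limma), and without replicate 1 it was -0.56 (adjusted p = 0.000608). The second probe of Col14a1 did not show it: that probe gave 0.24 ± 0.28 (adjusted p = 0.649) and its groups overlapped. Averaging both probes gave -0.25 (adjusted p = 0.479), so the call rests on the brighter probe.

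Among basement membrane chains, Col4a1 read -0.34, 0.11, -0.09 and -0.18 on control diet and -0.25, -0.20, -0.27 and -0.14 on the drug. The drug arrays lay inside the range of the controls, and the difference was -0.09 ± 0.09 (SE; 95% interval -0.28 to 0.11, adjusted p = 0.588, limma). It was 0.03 after median centring and 0.05 on the Cy5 channel alone. Its second probe gave -0.38 ± 0.13 (adjusted p = 0.0641). Col4a2 read -0.08, -0.01, 0.04 and 0.07 on control diet and -0.37, -0.17, -0.24 and -0.02 on the drug. Its difference of -0.21 ± 0.09 did not pass (adjusted p = 0.151), and the second probe gave -0.18 ± 0.11.

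Col18a1 read 0.10, -0.08, -0.13 and 0.11 on control diet and -0.07, -0.31, -0.28 and -0.41 on the drug. Here drug replicate 1 was the highest of its group, where it was the lowest for 6 other chains, and replicate 4 was the lowest. The difference was -0.27 ± 0.09 (SE; adjusted p = 0.0647, limma), and the second probe, missing on all 4 arrays of slide 1, gave -0.25 ± 0.11. Without drug replicate 1 the Col18a1 difference was -0.33 (adjusted p = 0.0212), and without control replicate 3 it was -0.31 (0.0469). Without slide 1 it was -0.32 (0.0497), and after median centring 0.01. The 95% intervals of Col4a1, Col4a2 and Col18a1 reached down to -0.28, -0.40 and -0.46, and whether these chains differ from the fibrillar ones was not tested.

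**Figure D2:**
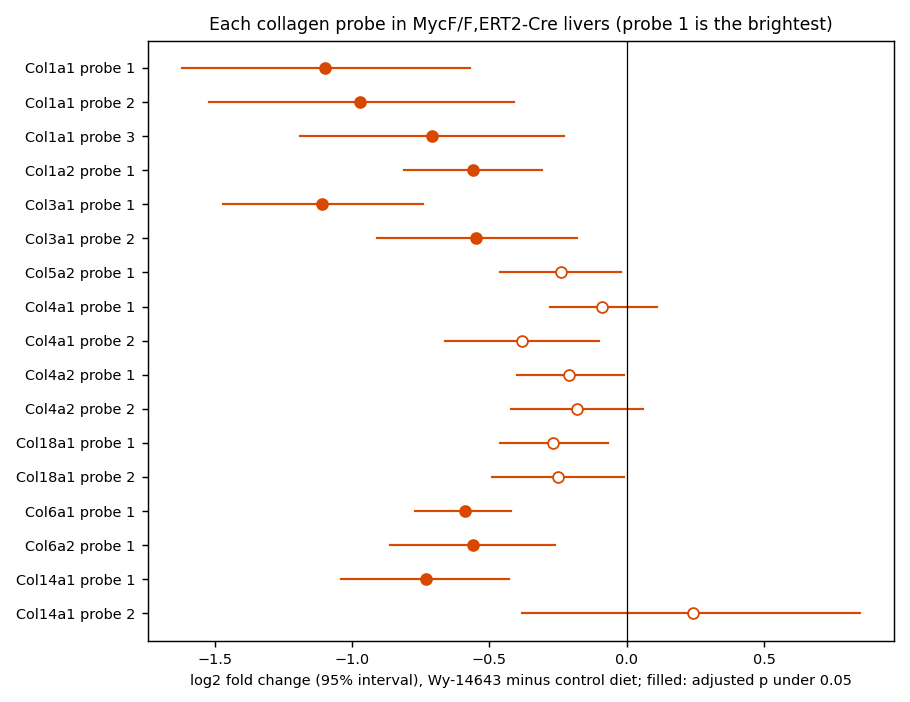
Log2 fold change of each of the 17 collagen probes on Wy-14643 against control diet in MycF/F,ERT2-Cre livers (horizontal axis) with 95% intervals; filled points had an adjusted p under 0.05. Of the 17 probes 16 lie below 0 and 9 are called, and the second Col14a1 probe lies at 0.24.

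By probe, 9 of 17 collagen probes were called lower and 0 higher, where 7.02% of 31733 probes were called lower and 9.52% higher. The 3 Col1a1 probes and the 2 Col3a1 probes were all among the 9. Each slide held both diets of this genotype, so the drug difference could be taken within a slide. On slide 1 all 9 chains with a value lay below 0 (median -0.78, lowest -1.46 for Col3a1), on slide 2 all 9 (median -0.24) and on slide 3 all 10 (median -0.49). The median of all genes was 0.04, 0.01 and 0.03 on these slides. Col1a1 differed by -1.30, -1.08 and -1.01 and Col3a1 by -1.46, -1.14 and -0.82. Col6a2 ranged more widely, at -0.92, -0.18 and -0.69. Among the 4 drug arrays replicate 4 was the highest for 7 of the 10 chains, and replicate 1 the lowest for 6. The 7 include Col1a2, which had a value on drug replicates 3 and 4 only.

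**Figure D3:**
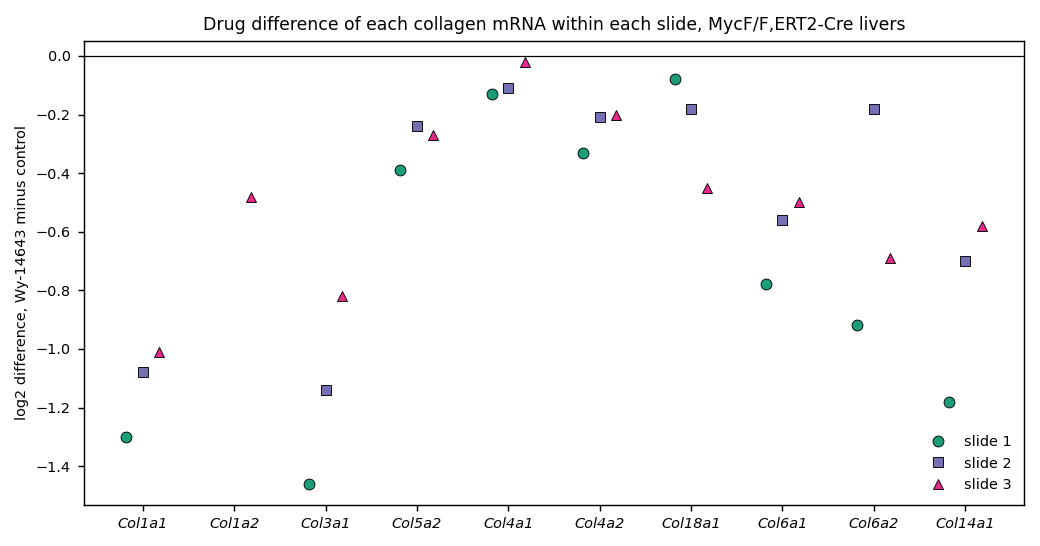
Difference in log2 ratio between Wy-14643 and control diet within each slide (vertical axis) for each collagen in MycF/F,ERT2-Cre livers; marker shape and colour give the slide, and slides with 2 arrays of a diet use their mean. Every point lies below 0, from -1.46 for Col3a1 on slide 1 to -0.02 for Col4a1 on slide 3, and Col1a2 has a value on slide 3 only.

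The genotypes were compared among livers on the drug, 4 MycF/F,ERT2-Cre arrays against 3 MycF/F arrays. In this comparison the presence of Cre and the loss of Myc cannot be told apart. Of the 10 chains 0 were called by limma, and 1 had an unadjusted p under 0.05. Over all 25166 genes 0.103% were called, so a count of 0 among 10 chains is near that background. These were 5 genes higher and 21 lower; 0 were called with the replicate number as a block, with offset 16, median centring, the deposited log ratio or Cy5 alone, or without any 1 MycF/F drug array or MycF/F,ERT2-Cre drug replicate 2, 3 or 4. Without slide 1, 33 were called higher and 76 lower, without MycF/F,ERT2-Cre drug replicate 1 these were 2 and 6, without control replicate 4 of that genotype 4 and 12, and with outlier spots kept 10 and 31. The estimates ran from -0.29 (Col4a2) to 0.14 (Col18a1) with a median of -0.01, and 5 of 10 lay below 0. Col1a1 read -1.06, -0.83 and -0.13 in MycF/F livers, which lay within the range of the MycF/F,ERT2-Cre values given above. Its difference was -0.08 with a 95% interval from -0.65 to 0.49. For Col3a1 the MycF/F arrays read -0.29, -0.37 and 0.14 and the difference was -0.13 (interval -0.53 to 0.26). For Col14a1 they read -0.53, -0.56 and -0.44, and the difference was 0.05 (interval -0.27 to 0.38). The Col1a1 interval thus includes a decrease as large as that of Col6a1 with the drug, and an absence of a genotype effect was not shown.

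Col4a2 had the smallest p of the 10 in this comparison. MycF/F livers on the drug read 0.13, -0.04 and 0.19 and MycF/F,ERT2-Cre livers -0.37, -0.17, -0.24 and -0.02, with replicate 4 of the latter above replicate 2 of the former, so the groups overlapped. The difference was -0.29 ± 0.10 (SE; unadjusted p = 0.0108, adjusted p = 0.326, limma). Its second probe gave -0.49 ± 0.12 (adjusted p = 0.182), from MycF/F values of -0.16, -0.10 and 0.09 and MycF/F,ERT2-Cre values of -0.81, -0.55, -0.50 and -0.31, which did not overlap. Within slides the Col4a2 difference was -0.50, -0.12 and -0.32. Its neighbour Col4a1 differed by -0.04 (interval -0.26 to 0.17).

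The drug effect in MycF/F livers rests on the single control array, which was assumed to vary like the arrays of the other groups. Of the 10 chains 1, Col1a2, was called lower (-0.55 ± 0.14, SE, 1.47-fold, adjusted p = 0.0485, limma), and over all 24911 genes 3.25% were; 0 were called higher, against 3.26%. The Col1a2 control read 0.72 and the drug arrays 0.08, 0.21 and 0.20. That call was lost under 12 of the 16 alternatives in which it was computed, each of the 3 that left out a drug array among them. Col14a1 was called in its place with the replicate number as a block (-0.92, adjusted p = 0.0266), and beside it without slide 1 (-0.71, 0.00351). Of the estimates 9 of 10 lay below 0, with a median of -0.41, where 50.8% of all genes did. Col1a1 was at -0.73 ± 0.40, Col14a1 at -0.72 ± 0.23, Col3a1 at -0.56 ± 0.27 and Col6a2 at -0.46 ± 0.23, with adjusted p from 0.0932 to 0.399. Col4a2 was the one estimate above 0, at 0.11 ± 0.14. Replicate 3 on the drug was the highest MycF/F drug array for 8 of the 10 chains.

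**Figure D4:**
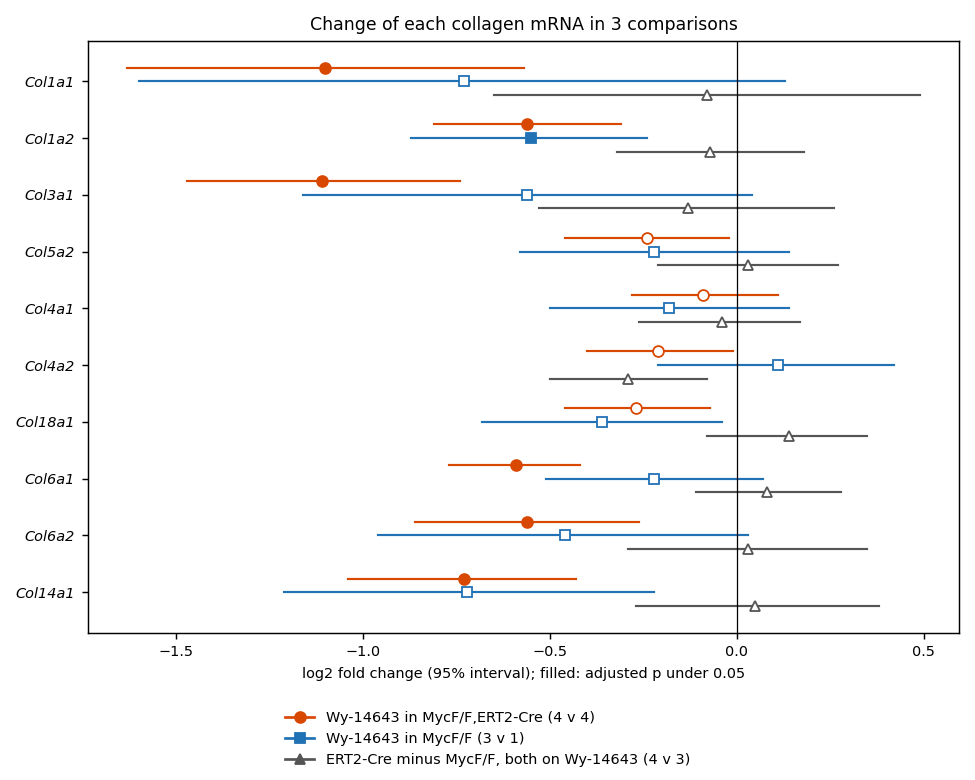
Log2 fold change (horizontal axis) with 95% interval of each collagen: the drug against control diet in MycF/F,ERT2-Cre livers and in MycF/F livers, and genotype on the drug (MycF/F,ERT2-Cre minus MycF/F); filled points had an adjusted p under 0.05 and the numbers of arrays stand in the key. The genotype differences lie between -0.29 and 0.14, and both drug comparisons lie below 0 except Col4a2 in MycF/F livers at 0.11.

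Both comparisons of genotype that use the lone control gave 0 calls by limma over all genes, 0% of 24897 for genotype on control diet and 0% of 24873 for the difference of the drug effects between genotypes, so 0 of 10 chains is the background there. In each, 1 chain had an unadjusted p under 0.05, and in both it was Col6a1. On control diet MycF/F,ERT2-Cre livers were 0.46 ± 0.13 higher in Col6a1 (unadjusted p = 0.00415, adjusted p = 1), from -0.22 on the MycF/F array against 0.19 to 0.30. The Col6a1 drug effects differed by -0.37 ± 0.16 (unadjusted p = 0.0351, adjusted p = 1). The other chains ran from -0.14 to 0.41 for genotype on control diet, and the drug effects differed by -0.55 (Col3a1) to 0.10.

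The genes that make, process and bind collagen were counted from lists of textbook roles, in MycF/F,ERT2-Cre livers on the drug against control diet. Of the 31 called genes named from these and the marker lists, 28 were not called with median centring in place of loess and 17 not on the Cy5 channel alone. Each list's count stands beside 7.25% of all genes called lower and 9.09% higher; with lists this short, 1 or 2 calls lie near those shares, and no list was tested as a set. Of 24 other collagen chains measured 4 fell and 0 rose, and the median was 0.01. Col5a1, the partner of Col5a2 in type V trimers, fell by 0.70 (SE 0.12, adjusted p = 0.00201, limma), although its dimmer probe gave -0.08. Col5a3, another type V chain, fell by 0.61 (SE 0.14), with its second probe at -0.62. Col8a1, a network-forming chain, fell by 0.32 on 1 probe while the other gave 0.05. The fourth, named here after its value was seen, was Col11a2 at -0.31.

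Of 18 genes for folding and modification in the endoplasmic reticulum 5 fell and 1 rose. Ppib, a prolyl isomerase, fell by 0.99 (SE 0.09, adjusted p = 0.000114, limma) and its 2 probes agreed at -0.99. P4hb, the disulfide isomerase that is also a subunit of prolyl 4-hydroxylase, fell by 0.91 (SE 0.16). Serpinh1, the collagen chaperone HSP47, had control values of 0.36 to 0.68 and drug values of -0.35 to -0.05 and fell by 0.68 (SE 0.12, adjusted p = 0.00218). Ppib and P4hb serve secretory proteins in general, and Serpinh1 is specific to procollagen. Sec23a, a coat protein of transport vesicles and the one that rose, was at 0.56; it was named after its value was seen. The median of the 18 was -0.06.

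Of 9 genes for procollagen processing and cross-linking 1 fell and 1 rose. Pcolce, which enhances removal of the C-terminal propeptide, had control values of 0.39 to 0.66 and drug values of -0.79 to -0.07 and fell by 0.90 (SE 0.13, adjusted p = 0.000538, limma). Tgm2, a transglutaminase, rose by 0.62 (SE 0.12), and its 2 other probes gave 0.86 and 0.85. Of 17 genes for degradation and its inhibitors 1 passed: Mmp1a, a collagenase, at 0.34 (adjusted p = 0.0342), with a second probe at 0.06 and a value of -0.21 on the Cy5 channel alone. That call was lost under 14 further alternatives of 21. Of 5 collagen receptors measured 0 passed, where 9.09% and 7.25% of all genes did; the lowest was the receptor kinase Ddr2 at -0.21 (adjusted p = 0.0511).

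Of 13 basement membrane partners 2 fell and 1 rose. Sparc, a collagen-binding glycoprotein, had control values of 0.31 to 0.56 and drug values of -0.66 to -0.29; it fell by 0.97 (SE 0.11, adjusted p = 9.78e-05, limma) with a second probe at -0.93. Agrn, the proteoglycan agrin, fell by 0.49 (SE 0.08). Lamb3, a laminin chain of epithelial anchorage, moved the other way by 3.62 (SE 0.20, adjusted p = 1.38e-06), from control values of -3.90 to -2.98 to drug values of 0.29 to 0.48 on the 3 arrays that had one. Of 21 interstitial partners 7 fell and 0 rose, with a median of -0.20. Fn1, fibronectin, fell by 1.03 (SE 0.22), and its other probes gave -0.31 and -1.12. Bgn, the small proteoglycan biglycan, fell by 0.73 (SE 0.08, adjusted p = 6.59e-05), and Efemp2, a fibulin, by 0.48 (SE 0.11). Fibronectin is also a product of hepatocytes.

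In the TGF-β axis, the pathway best known for raising collagen transcription, 3 of 21 genes fell and 1 rose, with a median of -0.10. Tgfb1, the ligand, fell by 0.49 (SE 0.09, adjusted p = 0.00207, limma), from control values of 0.23 to 0.57 to drug values of -0.17 to -0.02. Ltbp4, which binds latent TGF-β in the matrix, fell by 0.60 (SE 0.10). In the comparison of genotypes on the drug, 0 genes of any of these lists were called by limma, against 0.103% of all genes.

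**Figure D5:**
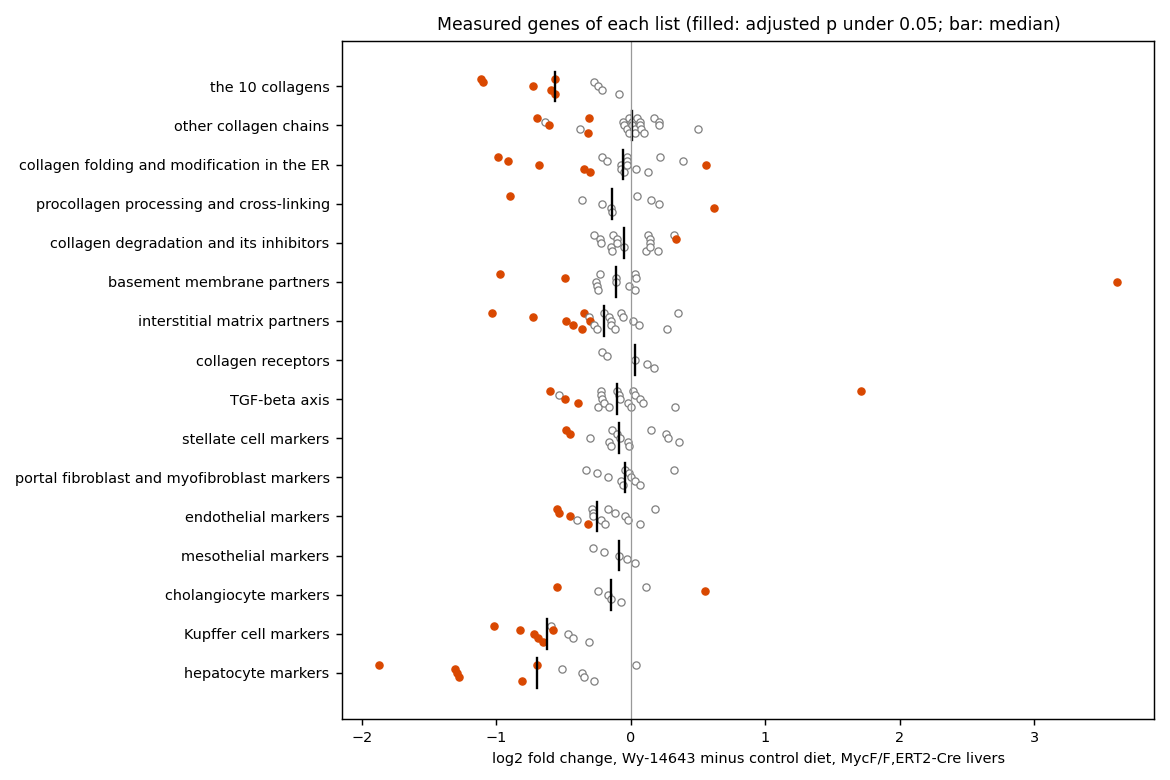
Log2 fold change on Wy-14643 in MycF/F,ERT2-Cre livers (horizontal axis) of every measured gene of each list, collagens first; filled points had an adjusted p under 0.05 and the bar is the list's median. The collagens have a median of -0.56, the stellate cell markers -0.09, the Kupffer cell markers -0.62 and the hepatocyte markers -0.70, and Lamb3 stands apart at 3.62.

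Markers of the cells that could supply these chains were read beside them in the same comparison, where 7.25% of all genes were called lower and 9.09% higher. Of 14 stellate cell markers 2 fell and 0 rose (Reln -0.48, Colec11 -0.45), with a median of -0.09, and the mean log2 ratio of the 12 with a value on every array ran from 0.06 to 0.12 on the control arrays and from -0.06 to 0.06 on the drug arrays. Of 11 portal fibroblast and myofibroblast markers 0 passed, and Acta2, smooth muscle actin, was at -0.33 (adjusted p = 0.167, limma). Of 16 endothelial markers 4 fell and 0 rose (Stab1 -0.55, Eng -0.53, Cdh5 -0.45 and, named after its value was seen, Tie1 -0.32), and the mean of the 14 with a value on every array ran from 0.05 to 0.21 on control diet and from -0.16 to -0.01 on the drug. The Cdh5 call was lost under 12 of 21 alternatives. Of 5 mesothelial markers 0 passed, with Krt19 at -0.28, and Upk1b and Wt1 were not above background on any array.

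Of 10 Kupffer cell markers 6 fell (Cd5l -1.02, Adgre1 -0.82, Clec4f -0.72 the most). A second Adgre1 probe gave -0.10 (adjusted p = 0.668, limma), and Clec4f had a value on only 2 control arrays. The mean of the 4 markers with a value on every array ran from -0.09 to 0.80 on control diet and from -0.35 to -0.10 on the drug. Of 11 hepatocyte markers 6 fell (Ahsg -1.87, Alb -1.31, Ttr -1.29 the most), and the mean of the 3 with a value on every array ran from 0.83 to 1.03 against -0.08 to 0.57. Ttr had a value on only 2 control arrays, and Ahsg on 3 arrays of each diet. Of 7 cholangiocyte markers Sox9 rose by 0.55 and Spp1 fell by 0.55; Sctr was not above background on any array. These lists share no gene with the 10 collagens. The part of the marker genes in the collagen differences was not tested.

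The chains were also correlated across the 12 arrays, as a description over arrays that share a reference and 4 group means; Col1a2, with 9 values, was left out. Col1a1 and Col3a1 had a Pearson r of 0.96, and of 0.89 after each group's mean was taken off. Among the 36 pairs of the 9 chains with values on all arrays, r ran from -0.18 (Col18a1 with Col4a2) to 0.96 with a median of 0.61. Within groups the order of pairs differed: Col14a1 with Col1a1 went from 0.78 to 0.16 and Col1a1 with Col6a2 from 0.84 to 0.48, while Col4a2 with Col3a1 went from 0.51 to 0.78 and with Col6a1 from 0.28 to 0.71. Col18a1 correlated with Col6a1 at 0.70 over all arrays and at -0.49 within groups, and with Col14a1 at 0.58 and -0.73. The within-group values of Col14a1 lean on MycF/F,ERT2-Cre drug replicate 1. There Col14a1 was far the lowest of its group (-0.97) and Col18a1 the highest (-0.07), and r without that array was not computed. Col4a1 with its neighbour Col4a2 gave 0.34.

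The genes most like 5 of the chains were taken from the 11639 genes with a symbol and a value on all 12 arrays. The nearest to Col1a1 were Col3a1 (r = 0.96), the microfibril protein Mfap4 (0.94) and Slc26a6 (0.93), with 0.89, 0.87 and 0.79 within groups. Those nearest to Col3a1 were Col1a1, Sparc (0.95) and Slc26a6 (0.94), with 0.89, 0.71 and 0.82 within groups. Col14a1 was closest to Pcolce (0.98), Btk (0.98) and Slc17a5 (0.97), with 0.92, 0.95 and 0.96 within groups. Those within-group values lean on MycF/F,ERT2-Cre drug replicate 1, where Col14a1 read -0.97 against -0.31 to -0.25 on the rest of its group. The r values without that array were not computed. Col18a1 was closest to Mgat1 (0.96), Cd99 (0.96) and Ankrd9 (0.95), with 0.88, 0.89 and 0.81 within groups. Col4a1 was closest to Slc7a6os (0.91), S100a9 (0.87) and Uso1 (0.87), with 0.91, 0.87 and 0.84 within groups.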

How the data were processed

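Each deposited intensity is the median pixel value of a spot or of its local background, in Cy5 or Cy3, as Agilent's Feature Extraction software (11.0.1.1, per the file headers) wrote it. That software's log10 ratio, also deposited, compares Cy5 with Cy3 after its own background and dye corrections and served as an alternative. Signals were corrected with normexp (offset 50) and loess-normalized within each array with limma (3.58.1, in R 4.3.3). Control spots and outlier spots were left out, and spots of a probe were averaged. Probes well above background on at least 3 of 12 arrays were kept (31861), all 17 collagen probes among them. Accessions were named through a RefSeq gene table (16792 of 17440 matched), and each gene was represented by its brightest probe. The reference is the same on all arrays with no dye swap, so a dye effect cancels between groups only where it is the same on every array.

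One linear model with 4 group means was fitted to all 12 arrays with lmFit and eBayes. Tests were two-sided, with Benjamini-Hochberg adjustment over all genes of a comparison and calls at 0.05. An SE or interval beside a log2 fold change is limma's, and the number of arrays limits its precision. The fit was also run on simulated data with independent errors, no slide effect and no missing values. Such data cannot show how calls behave under slide effects or another normalization. The members and lists were chosen with earlier results of these data known. All members were named, with up to 3 called genes per list by size of change (1 where none was called) and the 3 genes most correlated with each of 5 chains. In the comparison of genotypes on the drug, same-numbered arrays correlated in their deviations from group means at 0.41, 0.16 and 0.15. All of these pairs also share a slide, so a pairing by number and an effect of the slide cannot be told apart. Between diets in MycF/F,ERT2-Cre livers the correlations were 0.32, -0.07, -0.01 and 0.11, and the first and last of these pairs share a slide. Alternatives were other background corrections, normalizations, filters and probe rules, slide and replicate number as fixed blocks, and each array or slide 1 left out. One called gene of the TGF-β list is not reported here by name.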

Additional observations from a re-analysis of the deposited data

Results flagged for a closer look

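On the drug, Col14a1 in MycF/F,ERT2-Cre livers had 1 array far from the others of its group: replicate 1 read -0.97, where the other 3 read between -0.31 and -0.25. The gap was 0.92 of the group's whole range. Of 18 groups of at least 4 arrays that were looked at, this was the only one past Dixon's limit, and chance passes about 1 in 20. The array is on slide 1. The second Col14a1 probe read -0.03 there, and it was low on the other arrays of that slide too (-0.04 to 0.37, against 0.42 or more on the other slides).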

How the results depend on the processing

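For Wy-14643 in MycF/F,ERT2-Cre livers the count of collagens called, 6, became 0 with median centring in place of loess and 2 on the Cy5 channel alone; it was 5 to 7 with each array left out, 7 with slide as a block and 6 with the replicate block. Median centring also moved the share of higher calls among all calls from 55.6% to 67.8%. The cause was not tested. It put Col4a1 at 0.03 and Col18a1 at 0.01, and the Cy5 channel put Col4a1 at 0.05 and Mmp1a at -0.21. Normalizing brightness between arrays (Aquantile) leaves ratios as they are and changed nothing. Of the 31 other genes named in that comparison, 28 were not called with median centring, 17 on Cy5 alone and at most 4 under any other alternative.
For genotype on Wy-14643, where 0 were called under every alternative, estimates near 0 changed sign: Col1a1 to 0.05 with median centring, Col5a2 to -0.03 on Cy5 alone and with the replicate block, Col1a2 to 0.17 with outlier spots kept, and Col6a2 to -0.01 with slide as a block and -0.03 with the replicate block. With 1 array left out they also did: Col1a1 ran from -0.33 to 0.19, Col3a1 from -0.31 to 0.02, Col5a2 from -0.04 to 0.11, Col6a2 from -0.09 to 0.16 and Col14a1 from -0.01 to 0.23. In MycF/F livers the count of 1 became 0 under 11 alternatives (no background subtraction, offset 16, median centring, deposited log ratio, Cy5 alone, outlier spots kept, the strict filter, slide as a block, each drug array left out) and 2 without slide 1, and Col5a2 was 0.04 on Cy5 alone. Genotype on control diet and the difference of drug effects had 0 calls throughout, and Col3a1 was -0.03 on control diet on Cy5 alone. With the replicate block, the calls of Col1a2, Col5a2 and, in MycF/F livers, Col14a1 changed as given above, and no other collagen's call did. Signal over background limits Col5a2 most.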
